A study of Rattus norvegicus with 5 samples.

Results

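Atp2a2 (ENSRNOG00000001285), Pln (ENSRNOG00000000413) and Ryr2 (ENSRNOG00000017060), the 3 genes at the centre of calcium storage and release in heart muscle cells, were followed through 5 single-cell RNA libraries of cultured rat ventricular cells. They are 3 of the 15074 rat genes listed in all 5 tables and were taken by their IDs. The tables list genes by Ensembl ID only, and the names of these 3 came with the list of IDs. The cells were primary ventricular cells, myocytes and non-myocytes together, of wild-type Sprague Dawley rats at P2 (postnatal day 2). They had received an adenovirus with GFP or an adenovirus with TBX18, a T-box transcription factor, and were collected at day 3 or day 14. A further culture had the TBX18 virus and 0.2 µM of A83-01, which blocks TGF-beta type I receptors. Its title gives day 14, while its treatment label gives 3 days. By its title, the series asks how TBX18 turns ventricular myocytes into pacemaker cells. Each group had 1 library, and whether cells of several animals were pooled is not given in the sources used here. No difference below therefore has a replicate check, no test between groups was made, and every interval is a 95% interval for counting error only.

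In each heartbeat, a small entry of calcium through surface channels opens ryanodine receptors in the sarcoplasmic reticulum, the internal calcium store of a muscle cell, and the calcium they release drives contraction. Ryr2 encodes the cardiac ryanodine receptor, the release channel. Atp2a2 encodes SERCA2, the pump that returns calcium to the store and lets the muscle relax. Pln encodes phospholamban, a small membrane protein that slows the pump until it is phosphorylated after beta-adrenergic stimulation. In pacemaker cells of the sinoatrial node, rhythmic calcium release from the same store takes part in setting the rate. SERCA2 also has a form found in many non-muscle cells, whereas phospholamban and the cardiac ryanodine receptor are best known from the heart and, for phospholamban, smooth muscle.

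The promoters are shown because the virus delivers a T-box factor and the 3 genes moved together in part of the data. The sequences are the 250 bases before the transcript start in RefSeq, build GRCr8, at chr12:39733269-39733518 for Atp2a2, chr20:33172244-33172493 for Pln and chr17:63081277-63081526 for Ryr2, all on the plus strand. All 3 genes were matched by symbol, and this build differs from the one named for the read counts. Capitals mark matches, on either strand, to any of the short motifs searched, whose letters are given below beside their counts.
Atp2a2: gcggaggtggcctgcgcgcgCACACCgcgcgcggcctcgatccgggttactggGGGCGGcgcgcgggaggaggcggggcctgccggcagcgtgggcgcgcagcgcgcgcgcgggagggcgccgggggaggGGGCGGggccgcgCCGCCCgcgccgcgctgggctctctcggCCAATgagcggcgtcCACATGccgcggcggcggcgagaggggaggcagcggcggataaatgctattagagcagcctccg
Pln: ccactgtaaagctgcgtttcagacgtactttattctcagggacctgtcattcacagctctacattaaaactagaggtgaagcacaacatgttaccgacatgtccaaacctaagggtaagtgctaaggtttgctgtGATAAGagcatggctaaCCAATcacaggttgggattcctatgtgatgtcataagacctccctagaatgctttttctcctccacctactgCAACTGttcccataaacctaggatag
Ryr2: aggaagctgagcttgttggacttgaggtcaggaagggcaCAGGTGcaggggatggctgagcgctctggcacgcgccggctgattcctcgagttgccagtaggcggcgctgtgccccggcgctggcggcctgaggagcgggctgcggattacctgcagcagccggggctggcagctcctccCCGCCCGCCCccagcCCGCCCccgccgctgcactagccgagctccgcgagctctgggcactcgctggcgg
The Atp2a2 window held 1 T-box half-site, spelled GGTGTG, which starts 230 bases before the transcript start and is read on the minus strand. The Pln and Ryr2 windows held 0. Of 33469 promoter windows of this length, 15.4% held the half-site. Pln held 1 site for GATA factors, spelled GATAAG, 115 bases before the start, as did 6.18% of the windows. Each of the 3 held 1 E-box, spelled CANNTG, as 65.5% of the windows held at least 1. Atp2a2 and Ryr2 each held 3 GC boxes, spelled GGGCGG (30.5% of the windows held any), of which a pair in Ryr2 overlap, and Pln held 0. GC content was 80.0% for Atp2a2 and 72.0% for Ryr2, above 98.9% and 94.0% of the windows. For Pln it was 44.0%, above 23.8% of them. A CCAAT box was present in Atp2a2 and Pln and in 34.0% of the windows. None of the 3 windows held TATAAA, the core of the box of that name, which 12.9% of the windows held. None held an M-CAT box, spelled CATTCC, which 12.1% held. A match is a run of letters and was not tested as a binding site.

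The libraries held from 6424 to 8859 barcodes and from 104599751 to 202019523 UMIs, where a UMI marks 1 captured RNA molecule. After filtering, 6066 to 7901 cells remained, with a median of 15358 to 28563 UMIs, and depth was higher at day 3 than at day 14. A library shared from 45 to 66 of its barcodes with any other. Marker names could not be read, so no cell was named a myocyte. Cells were instead split into 2 compartments by clustering without the 3 genes and without the virus features, and compartment 1, the one richer in EGFP in the GFP library at day 3, stands here for the myocytes. It held 4495 of the cells with GFP and 3124 with TBX18 at day 3, then 2011 with GFP, 1200 with TBX18 and 2443 with TBX18 and A83-01 at day 14. The other cells, from 2964 to 6673 per library, made up compartment 2. All 3 genes were higher in compartment 1 in each of the 5 libraries. By that ratio Ryr2 ranked between 2 and 34 among the 4029 to 5113 genes of at least 20 CPM (UMIs of the gene per 1000000 UMIs) in compartment 1, Pln between 8 and 33, and Atp2a2 between 152 and 253.

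In compartment 1, the SERCA2 gene Atp2a2 stood at 1814 CPM (1806 to 1822) with GFP and 1041 CPM (1034 to 1048) with TBX18 at day 3. At day 14 it stood at 2128 CPM (2113 to 2144) with GFP, 1711 CPM (1693 to 1729) with TBX18 and 2356 CPM (2342 to 2370) with TBX18 plus A83-01. Levels were lowest with TBX18 at day 3 and highest with A83-01, and no intervals overlapped.

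The phospholamban gene Pln spread more widely. It stood at 5003 CPM (4989 to 5017) with GFP and 1013 CPM (1006 to 1019) with TBX18 at day 3. At day 14 it stood at 3811 CPM (3789 to 3832) with GFP, 3062 CPM (3038 to 3086) with TBX18 and 2883 CPM (2868 to 2898) with TBX18 plus A83-01. At day 3 the TBX18 value lay apart from the other 4, and the GFP library of day 3 was the highest.

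The ryanodine receptor gene Ryr2 stood at 217.7 CPM (214.8 to 220.6) with GFP and 138.7 CPM (136.3 to 141.2) with TBX18 at day 3. At day 14 it stood at 345.7 CPM (339.3 to 352.2) with GFP, 339.6 CPM (331.5 to 347.7) with TBX18 and 347.4 CPM (342.2 to 352.7) with TBX18 and A83-01. The 3 libraries of day 14 overlapped in their intervals and lay above both libraries of day 3.

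**Figure D1:**
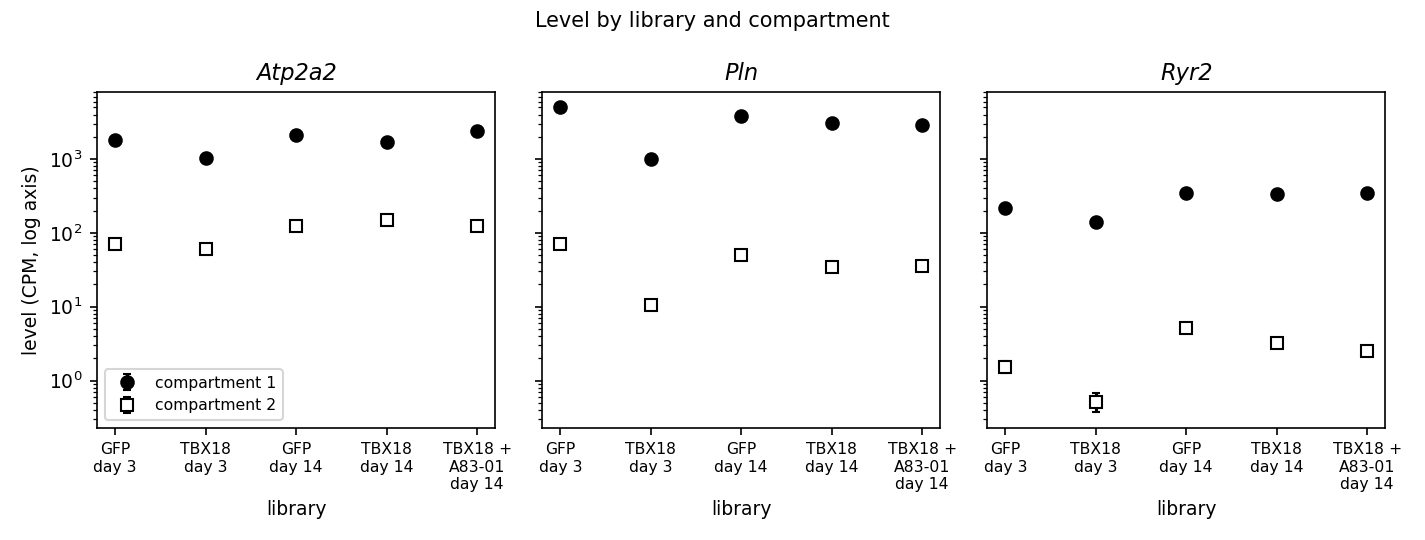
Level of each gene in CPM (log axis) by library, with filled circles for compartment 1, open squares for compartment 2 and bars for exact 95% Poisson intervals, mostly narrower than the symbols. In compartment 1 the TBX18 library of day 3 is the lowest for all 3 genes, at 1041, 1013 and 138.7 CPM, and all compartment 2 values lie below those of compartment 1.

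Compartment 2 held far less of the 3 genes, and to a different degree for each. Its Pln level was 69.6 CPM with GFP and 10.6 CPM with TBX18 at day 3, and 50.5, 34.7 and 36.1 CPM at day 14 with GFP, TBX18 and A83-01. As a percentage of the compartment 1 level of the same library, Pln ran from 1.05% to 1.39%, and Ryr2 from 0.370% to 1.51%. Atp2a2 ran from 3.94% to 8.75%, with levels of 71.5, 60.9, 122.3, 149.8 and 122.4 CPM in the same order of libraries. The UMIs of the 3 genes thus did not stand in 1 ratio in both compartments. Free RNA in droplets can place UMIs in cells that do not express a gene, and its part in compartment 2 was not tested.

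Individual cells were compared after each was thinned to 5000 UMIs, which left out 127, 89, 1, 0 and 0 shallower cells of compartment 1 (GFP and TBX18 at day 3, and at day 14 GFP, TBX18 and A83-01). A Pln UMI was found in 99.8% of cells (99.6 to 99.9) with GFP and 78.9% (77.5 to 80.4) with TBX18 at day 3, and in 99.7%, 97.9% and 98.6% at day 14. The median cell had 25 Pln UMIs with GFP at day 3 (10th to 90th percentile 13 to 38) and 4 with TBX18 (0 to 12). At day 14 the medians were 19 (8 to 31), 15 (3 to 30) and 14 (5 to 25). The 90th percentile of the TBX18 library at day 3 thus lay under the 10th percentile of the GFP library, while at day 14 the central ranges overlapped.

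For Atp2a2 the median cell had 9 and 5 UMIs at day 3 with GFP and TBX18, and 10, 8 and 11 at day 14 with GFP, TBX18 and TBX18 with A83-01. A cell with any Atp2a2 UMI was found in 99.2% and 88.5% of cases at day 3 and in 98.9% to 99.6% at day 14. Ryr2 was sparser, with a UMI in 58.2% of cells (56.7 to 59.6) with GFP and 42.5% (40.7 to 44.3) with TBX18 at day 3. At day 14 the shares were 75.2%, 71.6% and 74.3%, and all intervals lay above those of day 3. In compartment 2, at the same 5000 UMIs, a Ryr2 UMI was found in 0.446% to 2.15% of cells, a Pln UMI in 4.32% to 24.3% and an Atp2a2 UMI in 23.2% to 51.0%. No cell type that lacks the 3 genes could be named, so no background level is given. The shares of compartment 2 are not taken as one for Atp2a2, since SERCA2 has a form found in many non-muscle cells. How far expression or free RNA entered these shares was not tested. Without thinning, the compartment 1 shares were 97.9%, 99.9% and 88.8% for Atp2a2, Pln and Ryr2 with GFP at day 3, and 93.5%, 88.9% and 79.8% with TBX18, at median depths of 22351 and 29772 UMIs and with the shallower cells included.

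**Figure D2:**
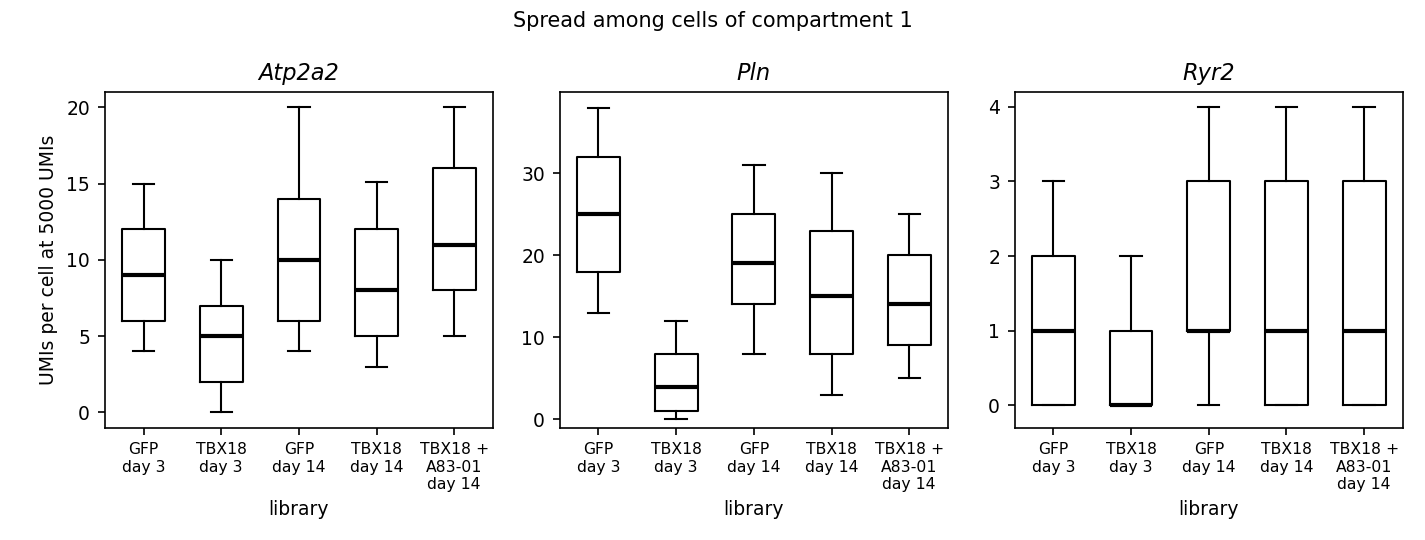
UMIs of each gene per cell of compartment 1 after thinning to 5000 UMIs, with the median (line), quartiles (box) and 10th and 90th percentiles (whiskers) of the cells of each library. For Pln the median is 25 with GFP and 4 with TBX18 at day 3, against 19, 15 and 14 at day 14.

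At day 3 all 3 genes were lower with TBX18 than with GFP in compartment 1, and phospholamban by far the most. Pln was 4.94-fold lower, a log2 ratio of -2.30 (-2.31 to -2.29). Of 4501 genes averaging 20 CPM or more over the libraries, 13 had a lower ratio. Atp2a2 had a log2 ratio of -0.80 (-0.81 to -0.79) and Ryr2 of -0.65 (-0.68 to -0.62). For these, 300 and 480 genes had a lower ratio. The median of the genes was -0.09, with 5th and 95th percentiles of -0.91 and 0.96. Of the 3 genes 1, Pln, was at least 2-fold lower and 0 were at least 2-fold higher, where 3.89% of all genes were lower and 4.53% higher. In compartment 2 the log2 ratios were -2.71 (-2.82 to -2.61) for Pln, -0.23 (-0.28 to -0.18) for Atp2a2 and -1.59 (-2.12 to -1.08) for Ryr2. That of Ryr2 rests on 44 UMIs with TBX18 and 121 with GFP. The part of free RNA in the compartment 2 ratios was not tested. Among cells without a transgene UMI in both libraries, a comparison chosen after seeing the data, the compartment 1 ratios were -2.10, -0.76 and -0.61 for Pln, Atp2a2 and Ryr2. Such cells can still have carried the virus, because UMIs capture only part of a cell's RNA. This holds for every comparison below by transgene UMIs.

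Different clusters held most of compartment 1 in these libraries. Clusters 3 and 12 made up 79.2% and 14.6% of it with GFP, and clusters 6, 15 and 19 made up 69.2%, 13.7% and 11.4% with TBX18. In cluster 3 Pln stood at 5540 CPM and in cluster 12 at 3060 CPM, against 1216 CPM in cluster 6 and 920.4 CPM in cluster 19. Atp2a2 stood at 1908 and 1567 CPM in the GFP clusters and at 1195 and 1171 CPM in clusters 6 and 19. The small clusters 23, 24 and 25 occurred with both viruses, and in each of them Pln was lower with TBX18. In cluster 25 (71 and 60 cells) it was 2327 CPM with GFP and 740.2 CPM with TBX18. In cluster 24 (98 and 42 cells) it was 1699 and 82.3 CPM, and in cluster 23 (107 and 73 cells) 6144 and 1030.0 CPM. Clusters 23 and 24 were shallow, with median depths of 3233 to 11914 UMIs, and the ratios of day 3 stayed within their intervals without them.

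Cluster 15, 429 cells of the TBX18 library at day 3, had the highest pooled level of human TBX18 transcript among its compartment 1 clusters. Of these cells, 59 had 0 transgene UMIs, while 126 cells with 5 to 19 lay in other clusters. Cluster 15 held far less of all 3 genes than the other cells, with the largest difference for Pln. It held hTBX18 at 94.4 CPM and ZsGFP, the marker of the TBX18 virus, at 341.8 CPM, against at most 14.7 and 50.7 CPM in the other compartment 1 clusters of the library. Pln stood at 43.2 CPM there and at 1151 CPM in the 2695 other cells, a 26.7-fold difference (log2 ratio -4.74, -4.87 to -4.61). Atp2a2 stood at 158.3 against 1167 CPM (log2 ratio -2.88, -2.95 to -2.81) and Ryr2 at 21.6 against 155.4 CPM (-2.84, -3.03 to -2.66). Median depth was 27356 UMIs, against 29876 and 33297 UMIs in clusters 6 and 19. Its profile over the other genes, centred within the library, had a median correlation of 0.30 (lowest 0.08, highest 0.49) with the 5 other clusters of compartment 1. With the 7 of compartment 2 the median was -0.45 (-0.48 to -0.19). The compartments were formed from correlations of such profiles. The signs thus follow largely from the assignment and are no separate check of it. In the alternative clusterings that kept all 429 cells of cluster 15, every one stayed in compartment 1. With cells of day 3 held to the day 14 range, 199 of the 429 were kept, all in compartment 1. These alternatives formed the compartments in the same way. Without this cluster, chosen after seeing the data, the day 3 ratios of TBX18 over GFP were -2.12 for Pln, -0.64 for Atp2a2 and -0.49 for Ryr2.

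Within the TBX18 library of day 3, compartment 1 cells with the most transgene UMIs held the least of all 3 genes, and most of these cells were in cluster 15. Pln was lower in each successive group, with or without that cluster. Cells were grouped by their hTBX18 and ZsGFP UMIs together. Pln stood at 1250.0 CPM in the 1728 cells with 0 transgene UMIs, 1125 CPM in the 589 with 1, 685.7 CPM in the 442 with 2 to 4, 244.5 CPM in the 291 with 5 to 19 and 48.9 CPM in the 74 with 20 or more. Atp2a2 stood at 1102, 1182, 1036, 622.5 and 185.7 CPM in the same order. Ryr2 stood at 142.1, 165.2, 149.9, 74.1 and 24.5 CPM. Pln was already 1.82-fold lower at 2 to 4 UMIs, where Atp2a2 was 1.06-fold lower and Ryr2 1.05-fold higher than in cells with 0. In the top group the level was 25.6-fold lower for Pln, 5.94-fold for Atp2a2 and 5.81-fold for Ryr2. Median depths of the groups were 28398, 31099, 32524, 32656 and 25744 UMIs. Cluster 15 held 72 of the 74 cells with 20 or more transgene UMIs and 165 of the 291 with 5 to 19.

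The groups were also formed without cluster 15, an alternative chosen after seeing the data, which left 2 cells in the top group and so no value for it. Pln then stood at 1289 CPM in the 1669 cells with 0 transgene UMIs, 1181 CPM in the 552 with 1, 825.2 CPM in the 346 with 2 to 4 and 458.3 CPM in the 126 with 5 to 19. Atp2a2 stood at 1132 CPM (1122 to 1142) with 0, 1234 and 1225 CPM in the middle groups and 1112 CPM (1081 to 1144) with 5 to 19, with overlapping intervals between the first and the last. Ryr2 stood at 145.9, 173.1, 178.2 and 126.3 CPM in the same order, higher in the middle groups and lower in the last.

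EGFP UMIs in the GFP library of day 3 went with a smaller difference. From 0 to 20 or more EGFP UMIs (2069 and 52 cells), Pln went from 5350.0 to 3699 CPM, Atp2a2 from 1872 to 1340.2 CPM and Ryr2 from 217.2 to 182.0 CPM. These are 1.45-fold, 1.40-fold and 1.19-fold lower, and median depth went from 19810.0 to 31996 UMIs. The difference between the viruses in this gradient was not tested.

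**Figure D3:**
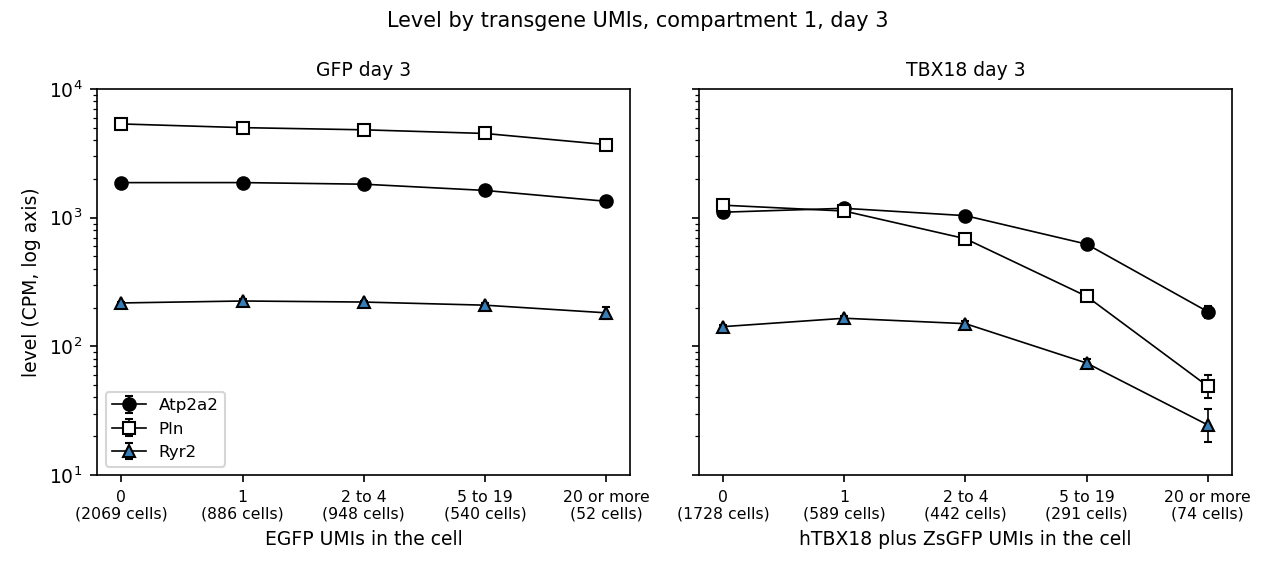
Level in CPM (log axis) of the 3 genes in compartment 1 cells grouped by transgene UMIs at day 3, EGFP in the GFP library (left) and hTBX18 plus ZsGFP in the TBX18 library (right), with exact 95% Poisson intervals and the number of cells under each group. Pln falls from 1250.0 to 48.9 CPM in the TBX18 library and from 5350.0 to 3699 CPM in the GFP library.

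With cells matched for depth, compartment 1 cells with a transgene UMI had less Pln than cells without one in all 3 libraries of the TBX18 virus. The log2 ratio was -0.67 (-0.70 to -0.65) at day 3, from 1265 cells of each kind, with 767.7 against 1225 CPM. It was -0.41 (-0.45 to -0.37) at day 14, from 188 cells of each kind, and -0.33 (-0.36 to -0.30) with A83-01, from 330. These lay among the lowest 1.31%, 4.27% and 3.31% of genes. None of the 3 genes was past 2-fold in any library. In the 3 libraries with TBX18, 0.667%, 0.844% and 0.222% of genes were at least 2-fold lower and 0.533%, 0.222% and 0.133% at least 2-fold higher, and with GFP 0.0% and 0.267% were lower and 0.0% and 0.0222% higher at day 3 and day 14. In the GFP libraries the ratio was -0.10 (-0.11 to -0.09) at day 3 and 0.05 (0.03 to 0.06) at day 14. Atp2a2 and Ryr2 lay between -0.16 and 0.06 in all 5 libraries. For Atp2a2 at day 3 with TBX18, the ratio of -0.16 (-0.18 to -0.14) turned to 0.12 without cluster 15, while that of Pln became -0.35. Without that cluster Ryr2 went from -0.05 to 0.21 (0.15 to 0.27), above 90.6% of the genes.

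At day 14 the differences between TBX18 and GFP in compartment 1 were small. Pln and Atp2a2 both had a log2 ratio of -0.32, with intervals of -0.33 to -0.30 for each, and were 1.24-fold lower with TBX18. Ryr2 had a ratio of -0.03 (-0.07 to 0.02), which includes 0. The median of all genes was 0.20, and relative to it the ratios were -0.51, -0.51 and -0.22. None of the 3 passed 2-fold, where 0.844% of genes were at least 2-fold lower and 2.95% higher. In compartment 2 Pln had a ratio of -0.54 (-0.61 to -0.47) and Ryr2 of -0.71 (-0.93 to -0.49), while Atp2a2 had one of 0.29 (0.25 to 0.33). No median over genes was computed for compartment 2.

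Cluster 9 made up 65.1% of compartment 1 with GFP and 1.67% with TBX18, and cluster 8 made up 18.9% and 84.2%. Within cluster 8, Pln stood at 4963 CPM (4906 to 5021) with GFP and 3356 CPM (3328 to 3385) with TBX18, and Atp2a2 at 2031 and 1787 CPM. Ryr2 stood there at 343.4 CPM (328.4 to 358.9) with GFP and 367.8 CPM (358.4 to 377.3) with TBX18, with intervals that overlap slightly. In cluster 18 Ryr2 was higher with TBX18, at 158.3 CPM (148.3 to 168.9) with GFP and 228.8 CPM (209.7 to 249.2) with TBX18, and Atp2a2 stood at 1252 CPM (1224 to 1281) and 1299.7 CPM (1254 to 1347), with overlapping intervals. In cluster 22 Ryr2 stood at 163.3 and 194.5 CPM and in cluster 9 at 411.4 and 441.8 CPM, both with overlapping intervals. Atp2a2 was lower with TBX18 in cluster 9, at 2439 CPM (2417 to 2461) with GFP and 1752 CPM (1594 to 1921) in 20 cells with TBX18. It was also lower in cluster 22, at 1729 CPM (1646 to 1816) and 1530 CPM (1469 to 1594). Pln in cluster 9 was lower too, at 4015.6 CPM (3987.5 to 4043.9) with GFP and 3302 CPM (3084 to 3531) with TBX18. Levels within shared clusters thus followed the ratios of the whole compartment in part only. In cluster 18 Pln was 2358 and 2052 CPM, and in cluster 22 it was 1523 (1445 to 1605) and 1471 CPM (1410 to 1533), also with overlapping intervals.

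With A83-01 added to TBX18 at day 14, the pump gene Atp2a2 was higher in compartment 1, at 2356 against 1711 CPM, a log2 ratio of 0.46 (0.44 to 0.48). This lay above 97.6% of the genes, whose median was -0.37. Ryr2 had a ratio of 0.03 (-0.01 to 0.07), which includes 0. Pln had a ratio of -0.09 (-0.10 to -0.07) by totals and of 0.41 under median-of-ratios scaling, so that its direction depends on the scaling. Relative to the median gene the 3 ratios were 0.84 for Atp2a2, 0.29 for Pln and 0.41 for Ryr2. None of the 3 passed 2-fold, where 0.511% of genes were at least 2-fold higher and 8.91% lower. Cluster 7 held 80.8% of compartment 1 with A83-01, so that here too different clusters were compared. In cluster 8, which both libraries share with 1010 cells without and 48 with A83-01, Pln stood at 3356 and 3611 CPM, Atp2a2 at 1787 and 1881 CPM and Ryr2 at 367.8 and 227.2 CPM. In cluster 22, with 69 and 94 cells, Pln stood at 1471 and 1979.5 CPM, Atp2a2 at 1530.4 and 1829.7 CPM and Ryr2 at 194.5 and 268.5 CPM. Pln was thus higher with A83-01 in both shared clusters and Atp2a2 in cluster 22, with overlapping intervals for Atp2a2 in cluster 8, while Ryr2 was lower in cluster 8 and higher in cluster 22. In compartment 2 the ratios by totals were -0.29 (-0.33 to -0.25) for Atp2a2, -0.35 (-0.61 to -0.09) for Ryr2 and 0.06 (-0.01 to 0.13) for Pln.

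Over all kept cells, with both compartments together, the differences at day 14 were larger. These values also hold the share of compartment 1 in the library. That share was 33.4% with GFP, 15.2% with TBX18 and 34.3% with TBX18 and A83-01. The log2 ratios of TBX18 over GFP were -0.998 for Atp2a2, -1.35 for Pln and -1.08 for Ryr2, and those of A83-01 over TBX18 were 1.28, 1.12 and 1.24.

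**Figure D4:**
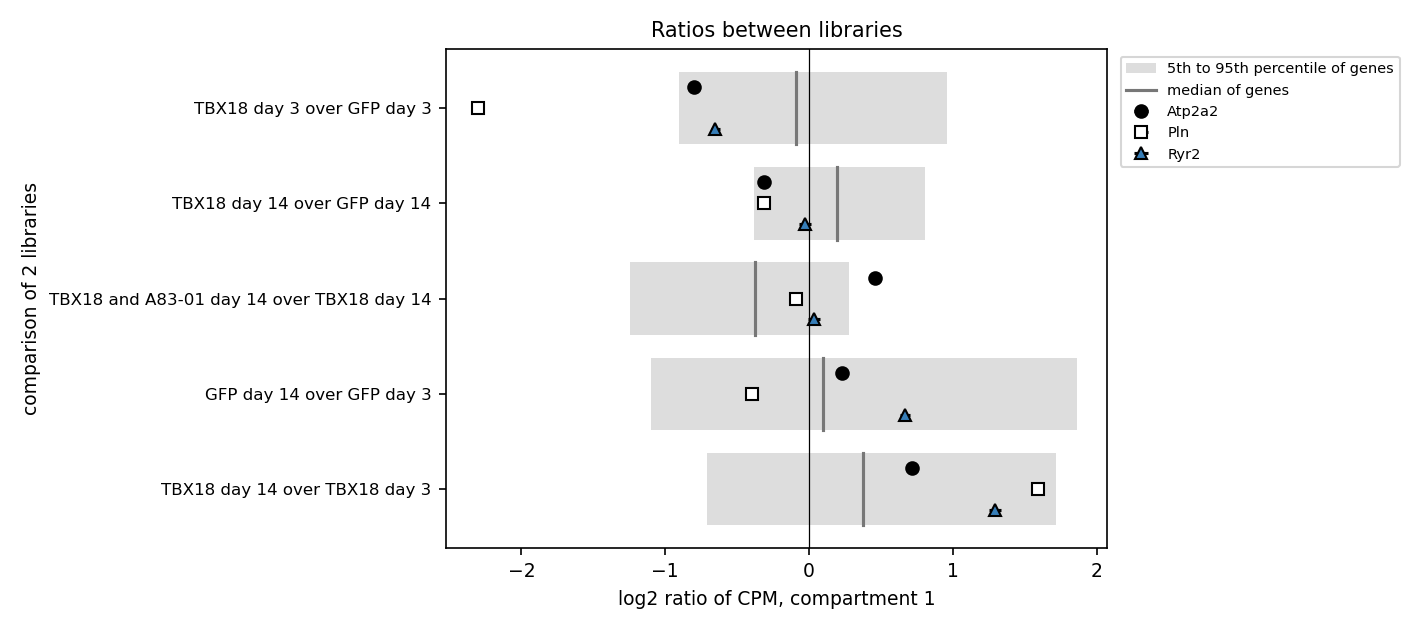
Log2 ratio of CPM in compartment 1 for each gene and comparison, with exact 95% intervals narrower than most symbols, beside the median (grey line) and the 5th to 95th percentile (grey bar) of 4501 genes. Pln at day 3 (-2.30) lies far below the bar and Atp2a2 with A83-01 (0.46) above it, and the other 13 values lie within.

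The comparison of day 14 with day 3 sets tables of different units and different ranges of genes per cell side by side. With TBX18, all 3 genes were higher at day 14: Pln by a log2 ratio of 1.60 (1.58 to 1.61), Ryr2 by 1.29 (1.25 to 1.33) and Atp2a2 by 0.72 (0.70 to 0.73). Pln and Ryr2 were at least 2-fold higher, as were 17.1% of all genes (2.55% were at least 2-fold lower), and the median gene had a ratio of 0.38. Under median-of-ratios scaling the ratios were 1.07, 0.76 and 0.19, so that Ryr2 was no longer past 2-fold. Over all kept cells the direction turned for all 3, to -0.04 for Pln, -0.34 for Ryr2 and -0.51 for Atp2a2, where compartment 1 held 51.3% of the cells at day 3 and 15.2% at day 14. With GFP, Pln was lower at day 14, by a log2 ratio of -0.39 (-0.40 to -0.38), and Ryr2 was higher, by 0.67 (0.63 to 0.70). Atp2a2 had a ratio of 0.23 (0.22 to 0.24) by totals and of -0.14 under median-of-ratios scaling, so that its direction depends on the scaling. Over all kept cells the GFP ratios were -1.13 for Pln, -0.06 for Ryr2 and -0.42 for Atp2a2. None of the 3 passed 2-fold with GFP, where 12.2% of genes were at least 2-fold higher and 6.33% lower. Relative to GFP of the same day, Pln in the TBX18 culture was 4.94-fold lower at day 3 and 1.24-fold lower at day 14.

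The split of genes past 2-fold depended on the scaling. By totals, 133 genes were higher and 38 lower for TBX18 over GFP at day 14, and 73 and 62 under median-of-ratios scaling. For A83-01 over TBX18 they were 23 and 401 by totals and 92 and 128 when scaled. For day 14 over day 3 they were 551 and 285 against 365 and 670 with GFP, and 771 and 115 against 315 and 447 with TBX18. At day 3, TBX18 over GFP gave 204 higher and 175 lower by totals and 185 and 204 when scaled, so that the larger side turned. The shift taken off every log2 ratio by the scaling was 0.05 for TBX18 over GFP at day 3 and 0.21 at day 14, -0.50 for A83-01 over TBX18, and 0.37 with GFP and 0.53 with TBX18 for day 14 over day 3.

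The balance of phospholamban to pump transcripts differed among the libraries. UMIs mark the 3' end of a transcript and are not scaled by length, so the ratio is compared among libraries only. In compartment 1 there were 2.76 Pln UMIs per Atp2a2 UMI (2.74 to 2.77) with GFP at day 3 and 0.973 (0.964 to 0.982) with TBX18. At day 14 the ratio was 1.79 (1.77 to 1.81) with GFP and 1.79 (1.77 to 1.81) with TBX18, and 1.22 (1.21 to 1.23) with A83-01. The libraries of day 14 with GFP and TBX18 thus overlapped, and the A83-01 library lay below them. Ryr2 per Atp2a2 UMI was 0.120 and 0.133 at day 3 with GFP and TBX18, and 0.162, 0.198 and 0.147 at day 14 with GFP, TBX18 and A83-01. Being free of the library total, these ratios do not depend on the scaling.

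Across clusters, though not among single cells of every library, the release channel followed the pump more closely than phospholamban did. Over 23 profiles of compartment 1, each a cluster in a library with at least 20 cells, log2 levels of Atp2a2 and Ryr2 were correlated at 0.97 (Pearson's r) and 0.90 (Spearman's rho). Only 2 of the other 4500 genes were closer to Atp2a2 than Ryr2 was. Atp2a2 and Pln had r of 0.50 and rho of 0.62, and Pln and Ryr2 r of 0.42 and rho of 0.56. By closeness to Atp2a2, Pln ranked 1708 of the 4500. Without cluster 15 and the shallow clusters 23 and 24, 18 profiles were left. Over these, r was 0.84 for Atp2a2 with Ryr2, 0.73 for Atp2a2 with Pln and 0.73 for Pln with Ryr2. Of the 4500 genes, 25 were then closer to Atp2a2 than Ryr2 was, and 147 were closer to it than Pln was. Profiles of a library share its depth and preparation, and the r are descriptions. The gene most like Atp2a2 over the 23 profiles was ENSRNOG00000006224 (r = 0.98), that most like Ryr2 was ENSRNOG00000027623 (r = 0.98) and that most like Pln was ENSRNOG00000014522 (r = 0.94). The files do not pair these IDs with names.

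**Figure D5:**
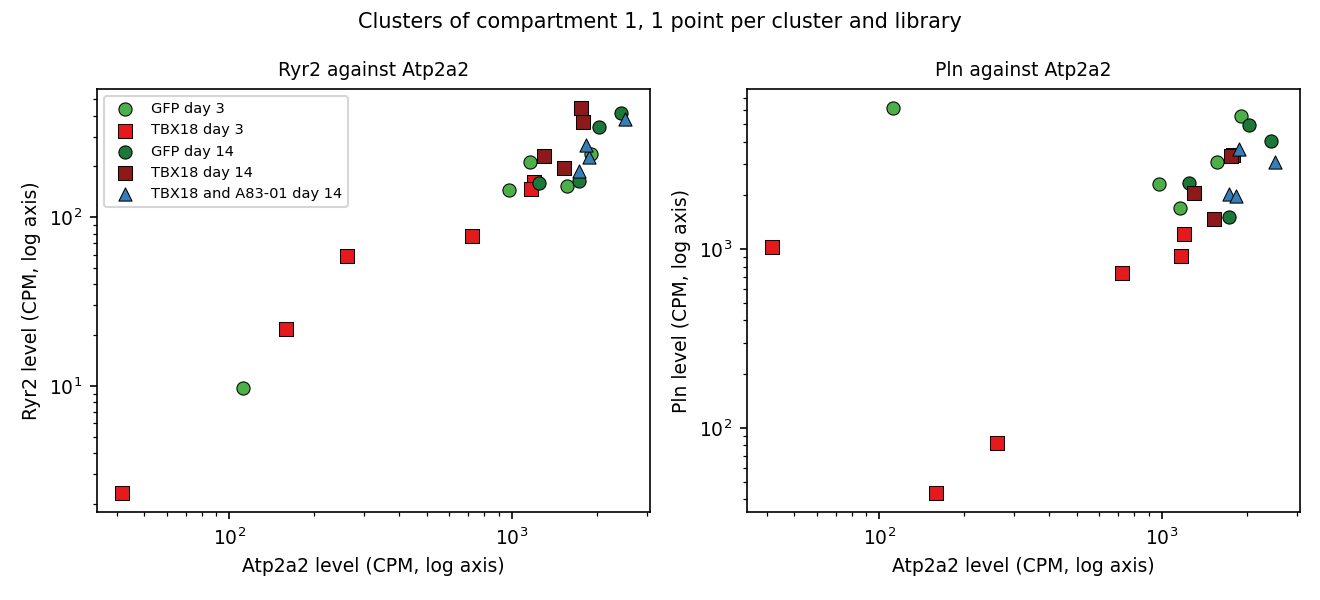
Level of Ryr2 (left) and of Pln (right) against that of Atp2a2 in CPM (log axes), with 1 point for each of the 23 profiles of compartment 1. Ryr2 lies along a line with Atp2a2, while in the plot of Pln the shallow cluster 23 (111.7 and 41.7 CPM of Atp2a2) and cluster 15 of TBX18 at day 3 (43.2 CPM of Pln) stand apart.

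Among single cells of compartment 1 thinned to 5000 UMIs, Spearman's rho between Atp2a2 and Pln was 0.17 with GFP (4368 cells) and 0.44 with TBX18 (3035 cells) at day 3. At day 14 it was 0.22 with GFP (2010 cells), 0.40 with TBX18 (1200 cells) and 0.35 with A83-01 (2443 cells). It was thus higher in the 3 libraries of the TBX18 virus than in both GFP libraries. Between Atp2a2 and Ryr2 the same coefficient was 0.17 with GFP and 0.28 with TBX18 at day 3, and 0.26, 0.36 and 0.19 at day 14 with GFP, TBX18 and A83-01. It was thus below that of Atp2a2 with Pln in the 3 libraries of the TBX18 virus. Counts of Ryr2 were sparse, and cells of a library share their source, so these values are descriptions.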

How the data were processed

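Single-cell 3' libraries were made with a droplet kit and sequenced, per the labels' protocols. STAR 2.7.8a, Partek and the genome build Rnor_6.0 are named in the submitters' processing notes, with no role or order. The annotation and the filters on cells are not given in the sources used here. For day 3 the authors deposited estimated counts (UMIs per cell), judging from the values, of which 99.7% were whole within 0.05 in both tables. The day 14 tables were deposited as log2 of CPM plus 1 within each cell, with sums per cell between 999991 and 1000009 once the log was undone. UMIs were recovered by taking a cell's most common nonzero value as 1 UMI, and 99.7% of values then came out whole within 0.05. The 3 genes had 0 fractional values in any table. The design took UMI counts as the unit, which the day 14 tables hold only in this recovered form.

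Barcodes with at least 500 genes were kept, and at most 6% of cells per library, those with the highest Scrublet doublet score (scanpy 1.11.5), were removed. In the 3 day 14 tables barcodes held 1977 to 5564 genes. The remaining cells of all libraries were clustered jointly, leaving out the 3 genes and the virus features, from 2000 variable genes, 30 principal components and 20 neighbours, with leidenalg 0.10.2 at resolution 1, which gave 32 clusters. Clusters of at least 20 cells in a library were joined by average linkage into 2 compartments, and 12 to 45 cells per library fell in neither. Gene IDs matched the gene table used here 0 times, so the lists of calcium-handling, sarcomere and nodal genes and the cell type markers of the design were not applied. The members and lists were chosen with earlier results of these data known. Named genes were the 3 members and, of the 5 genes most like each over the compartment 1 profiles, the first.

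Levels are CPM of summed UMIs with exact Poisson intervals, ratios of sums have exact intervals given their total, and shares have Clopper-Pearson intervals. Ratios over all genes used a pseudocount of 0.5 CPM and the genes averaging 20 CPM or more. Median-of-ratios scaling was computed over the 5 compartment 1 sums. Transgene contrasts were matched in 20 bins of depth. The scripts were tested on simulated counts.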

Additional observations from a re-analysis of the deposited data

Results flagged for a closer look

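Pln in compartment 1 went in opposite directions with time under the 2 viruses, with a log2 ratio of day 14 over day 3 of -0.393 with GFP and 1.60 with TBX18. With 1 library per group the difference could not be tested, and the day 14 tables differ from the day 3 tables in unit and range of cells.

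By totals, Atp2a2 differed in direction between the compartments at day 14. TBX18 over GFP gave -0.315 in compartment 1 and 0.292 in compartment 2, and A83-01 over TBX18 gave 0.462 and -0.291. The median gene of compartment 1 had ratios of 0.20 and -0.37 in these comparisons. No median gene and no scaled ratio were computed for compartment 2. Whether the opposite directions hold under another scaling is therefore not known. These differences were not tested.

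At day 14, cells with a transgene UMI had less Pln than cells without one under TBX18, with a log2 ratio of -0.407, and slightly more under GFP, with 0.0463, or 0.0058 without matching for depth. The difference was not tested.

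Barcodes with fewer than 500 genes, which no comparison used, held UMIs of the 3 genes, each above a floor of 3 UMIs. Passing that floor does not tell expression from free RNA, whose part was not tested. In the GFP library of day 3, 731 such barcodes held 224 UMIs of Atp2a2, 571 of Pln and 48 of Ryr2, or 43.0, 109.5 and 9.21 CPM. In the TBX18 library of day 3, 292 such barcodes held 43, 46 and 16 UMIs, or 14.5, 15.5 and 5.40 CPM. All 6 levels lay below those of compartment 1 in the same library. Those of Pln and Ryr2 lay above compartment 2 (69.6 and 1.54 CPM with GFP, 10.6 and 0.513 CPM with TBX18), and those of Atp2a2 below it (71.5 and 60.9 CPM). Their median depths were 6613 and 10122 UMIs.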

How the results depend on the processing

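Of 135 recomputed log2 ratios between libraries, 42 stayed within their counting interval, 85 moved outside it and 8 changed sign from a value whose interval excluded 0. The intervals are narrow because they hold counting error only, so moves of a few hundredths count here. The 4 reclusterings and the 3 alternatives chosen after seeing the data changed no such sign among the ratios between libraries. Values outside the interval are given in the order Atp2a2, Pln, Ryr2. At resolution 0.5 they were -0.35 and -0.35 for Atp2a2 and Pln (TBX18 over GFP at day 14), 0.49 and -0.053 for Atp2a2 and Pln (A83-01 over TBX18) and 0.68 and 1.56 for Atp2a2 and Pln (day 14 over day 3 with TBX18). With clustering within each library they were -0.36, -0.37 and -0.075 for the 3 (TBX18 over GFP at day 14), 0.51, -0.038 and 0.082 for the 3 (A83-01 over TBX18) and 0.67, 1.54 and 1.24 for the 3 (day 14 over day 3 with TBX18). With doublets kept they were -0.84, -2.32 and -0.70 for the 3 (TBX18 over GFP at day 3), 0.52, -0.044 and 0.11 for the 3 (A83-01 over TBX18), 0.15, -0.46 and 0.57 for the 3 (day 14 over day 3 with GFP) and 0.66, 1.54 and 1.22 for the 3 (day 14 over day 3 with TBX18). With cells of day 3 held to the day 14 range they were -0.74, -2.15 and -0.55 for the 3 (TBX18 over GFP at day 3), 0.21 and -0.45 for Atp2a2 and Pln (day 14 over day 3 with GFP) and 0.63, 1.39 and 1.19 for the 3 (day 14 over day 3 with TBX18). By the mean over cells of CPM they were -0.83 and -2.33 for Atp2a2 and Pln (TBX18 over GFP at day 3), -0.27 for Pln (TBX18 over GFP at day 14), -0.15 and -0.017 for Pln and Ryr2 (A83-01 over TBX18), 0.28, -0.38 and 0.78 for the 3 (day 14 over day 3 with GFP) and 0.79, 1.68 and 1.43 for the 3 (day 14 over day 3 with TBX18). Under median-of-ratios scaling they were -0.85, -2.35 and -0.70 for the 3 (TBX18 over GFP at day 3), -0.52, -0.52 and -0.24 for the 3 (TBX18 over GFP at day 14), 0.96, 0.41 and 0.53 for the 3 (A83-01 over TBX18), -0.14, -0.76 and 0.30 for the 3 (day 14 over day 3 with GFP) and 0.19, 1.07 and 0.76 for the 3 (day 14 over day 3 with TBX18). Over all kept cells they were -0.90, -2.44 and -0.79 for the 3 (TBX18 over GFP at day 3), -0.998, -1.35 and -1.08 for the 3 (TBX18 over GFP at day 14), 1.28, 1.12 and 1.24 for the 3 (A83-01 over TBX18), -0.42, -1.13 and -0.058 for the 3 (day 14 over day 3 with GFP) and -0.51, -0.038 and -0.34 for the 3 (day 14 over day 3 with TBX18). Without cluster 15 they were -0.64, -2.12 and -0.49 for the 3 (TBX18 over GFP at day 3) and 0.55, 1.41 and 1.13 for the 3 (day 14 over day 3 with TBX18). In cells without a transgene UMI they were -0.76, -2.10 and -0.61 for the 3 (TBX18 over GFP at day 3), -0.29 and -0.25 for Atp2a2 and Pln (TBX18 over GFP at day 14), -0.10 for Pln (A83-01 over TBX18), 0.16, -0.49 and 0.73 for the 3 (day 14 over day 3 with GFP) and 0.64 and 1.36 for Atp2a2 and Pln (day 14 over day 3 with TBX18). Over all kept cells the share of compartment 1 enters each ratio, by construction, and scaling moves all genes of a comparison by 1 shift. The cause of the other moves was not tested.

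For cells with over cells without a transgene UMI, 20 of 33 values stayed within their interval. Without matching for depth they were -0.16 for Pln (GFP day 3), 0.0056 for Ryr2 (GFP day 3), -0.18 for Atp2a2 (TBX18 day 3), -0.74 for Pln (TBX18 day 3), 0.0058 for Pln (GFP day 14), -0.040 for Atp2a2 (TBX18 day 14), -0.12 for Ryr2 (TBX18 day 14), -0.13 for Atp2a2 (TBX18 and A83-01 day 14) and -0.39 for Pln (TBX18 and A83-01 day 14). With clustering within each library the ratio was -0.28 for Pln (TBX18 day 14). Without cluster 15 they were 0.12 for Atp2a2 (TBX18 day 3), -0.35 for Pln (TBX18 day 3) and 0.21 for Ryr2 (TBX18 day 3). Genes at least 2-fold higher and lower numbered, with a minimum of 1 CPM, 760 and 484 (TBX18 over GFP at day 3), 502 and 121 (TBX18 over GFP at day 14), 74 and 1541 (A83-01 over TBX18), 2024 and 630 (day 14 over day 3 with GFP) and 2472 and 292 (day 14 over day 3 with TBX18), and under median-of-ratios scaling 73 and 62 (TBX18 over GFP at day 14), 92 and 128 (A83-01 over TBX18), 365 and 670 (day 14 over day 3 with GFP) and 315 and 447 (day 14 over day 3 with TBX18). A pseudocount of 5 CPM and clustering within each library kept these counts within 1.5 times. Of 75 recomputed levels, 39 moved outside their interval, by at most 15.4%, and the UMI ratios of Pln and Ryr2 to Atp2a2 moved by at most 11.7%. Shares of cells with a UMI rise with the depth they are read at. Thinned to 10000 UMIs, Ryr2 was found in 79.7% and 62.5% of cells with GFP and TBX18 at day 3. Myocytes by summed marker UMIs could not be run, since marker names could not be read. No paired analysis was possible because each group has 1 library, and no library could be left out.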

Other observations

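Cluster 23, the shallowest of compartment 1, kept Pln while holding little of the other genes. In the GFP library of day 3 its 107 cells, with a median depth of 3233 UMIs, held Pln at 6144 CPM (5906 to 6388), above the 5540 CPM of cluster 3, but Atp2a2 at 111.7 CPM (81.7 to 148.9) and Ryr2 at 9.71 CPM (2.65 to 24.9). In the TBX18 library its 73 cells held Pln at 1030.0 CPM, Atp2a2 at 41.7 CPM and Ryr2 at 2.31 CPM. The same imbalance thus appeared in both libraries of day 3, and its cause was not tested.

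In the TBX18 library of day 14, cluster 29, 55 cells that joined compartment 2, held Pln at 541.0 CPM, Atp2a2 at 385.5 CPM and Ryr2 at 51.8 CPM. In the other compartment 2 clusters of that library Pln ran from 28.3 to 58.8 CPM. Its median depth was 8580 UMIs, and whether it holds 1 kind of cell was not tested.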
